A study of Mus musculus with 6 samples.

Results

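The genes described here are the protein folding machinery of the endoplasmic reticulum (ER) and the unfolded protein response (UPR), measured by RNA sequencing in mouse liver. The 34 members were chosen by function, as named symbols that each matched 1 gene ID among the 55487 genes of the files. They hold 11 chaperones and their cofactors, 6 genes of the disulfide isomerase family (called disulfide enzymes below) and 8 genes of ER-associated degradation. The others are 5 stress sensors and transcription factors, and 4 genes of the channel and glycosylation machinery by which proteins enter the ER. All 34 passed the filter on low counts.

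Livers came from male mice aged 8 weeks on standard chow, 3 SCADD animals and 3 WT animals, with 1 poly(A) library each. SCADD mice are BALB_cBYJ, an inbred substrain that lacks short-chain acyl-CoA dehydrogenase, a mitochondrial enzyme of short-chain fatty acid oxidation, and WT mice are the related substrain BALB_cJ. The labels name no transgene, drug or special diet. Genotype and substrain coincide in every animal, and an effect of the enzyme cannot be told apart from other differences between the substrains. Pieces of 20 mg of frozen liver were used, so a lower level may mean fewer cells that make a transcript or less transcript per cell, and these cannot be told apart.

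Hepatocytes release large amounts of protein into the blood, and each of those proteins is folded in the ER. There Hspa5 (BiP) and Hsp90b1 (GRP94) bind unfolded chains, calreticulin and calnexin hold glycoproteins, protein disulfide isomerases form and reshuffle disulfide bonds, and chains that fail are sent back to the cytosol for degradation. When unfolded chains build up, the sensors Ern1 (IRE1), Atf6 and Eif2ak3 (PERK) are activated. Atf6 is cut to release a transcription factor, Ern1 splices the Xbp1 transcript, and both routes raise transcription of chaperone genes through promoter elements such as the ER stress response element (ERSE).

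Promoter windows from RefSeq (GRCm38.p6, 250 bases before to 50 bases after the start) were found for 27 of the 34 members, with 29 windows in all. No window was listed for Atf6, Derl1, Erp29, Hyou1, Manf, Ostc or Sec61a1. The ERSE, searched on both strands as CCAAT and CCACG with 9 bases of any kind between them, was present in 9 of the 29 member windows (31%) and in 39 of 32851 mouse windows (0.119%). Its 9 genes were Calr, Canx, Creld2, Derl3, Dnajc3, Hsp90b1, Hspa5, Pdia6 and Syvn1. The 39 windows include these 9. The ERSE is an element of chaperone promoters, so these shares are no test of the members. The related ERSE-II, searched on both strands as ATTGG and CCACG with 1 base of any kind between them, was present in the windows of Dnajb11 and Herpud1 and in 12 of all 32851 windows (0.0365%), and TGACGTGG, the core of the UPR element, searched likewise, in 0 of 29 member windows and 222 of all windows (0.676%). The ERSE and ERSE-II both end in CCACG, and by their letters both always hold a CCAAT box (ATTGG is CCAAT on the other strand). A CCAAT box is in 37.4% of all windows. A match describes letters in a window and shows no binding.

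The windows below are those of Hspa5 and Hsp90b1, whose transcripts fell, of Creld2 and Herpud1, whose levels differed widely between single livers, and of Sdf2l1, which had the largest fall of the 34 and no exact match. Capitals mark the ERSE, or the ERSE-II for Herpud1. Relative to the RefSeq start that sets each window, the first base of the match lies at -65 in Hspa5, -212 and -107 in Hsp90b1, -126 in Creld2 and -52 in Herpud1. In the gene annotation used below, Hspa5 starts at 34771970, upstream of its match. The windows are chr2:34771840-34772139 on the plus strand for Hspa5, chr10:86705395-86705694 on the minus strand for Hsp90b1, chr15:88819396-88819695 on the plus strand for Creld2, chr8:94386179-94386478 on the plus strand for Herpud1 and chr16:17132334-17132633 on the minus strand for Sdf2l1, each written 5′ to 3′ along its gene.
Hspa5: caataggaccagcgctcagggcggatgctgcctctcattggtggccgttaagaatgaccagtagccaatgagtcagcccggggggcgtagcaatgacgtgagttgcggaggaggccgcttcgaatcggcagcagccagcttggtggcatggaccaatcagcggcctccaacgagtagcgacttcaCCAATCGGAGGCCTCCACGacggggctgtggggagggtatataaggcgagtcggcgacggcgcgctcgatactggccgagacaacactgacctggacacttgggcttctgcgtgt
Hsp90b1: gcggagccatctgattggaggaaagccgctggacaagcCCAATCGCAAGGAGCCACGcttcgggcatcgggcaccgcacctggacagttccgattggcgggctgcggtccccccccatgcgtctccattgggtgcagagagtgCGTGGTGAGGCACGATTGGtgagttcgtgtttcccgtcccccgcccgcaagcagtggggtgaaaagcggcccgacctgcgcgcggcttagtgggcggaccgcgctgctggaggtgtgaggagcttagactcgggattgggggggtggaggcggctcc
Creld2: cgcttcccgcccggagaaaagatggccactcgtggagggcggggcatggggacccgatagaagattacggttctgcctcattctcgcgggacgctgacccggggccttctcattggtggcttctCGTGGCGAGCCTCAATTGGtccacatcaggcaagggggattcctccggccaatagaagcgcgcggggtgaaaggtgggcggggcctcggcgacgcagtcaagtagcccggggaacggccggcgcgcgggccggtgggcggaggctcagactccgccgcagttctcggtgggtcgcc
Herpud1: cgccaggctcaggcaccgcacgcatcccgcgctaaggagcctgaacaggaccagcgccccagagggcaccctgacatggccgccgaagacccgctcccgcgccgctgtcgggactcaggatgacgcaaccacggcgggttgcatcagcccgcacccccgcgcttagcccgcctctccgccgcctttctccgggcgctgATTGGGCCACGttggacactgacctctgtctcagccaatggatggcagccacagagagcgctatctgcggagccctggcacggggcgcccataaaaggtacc
Sdf2l1: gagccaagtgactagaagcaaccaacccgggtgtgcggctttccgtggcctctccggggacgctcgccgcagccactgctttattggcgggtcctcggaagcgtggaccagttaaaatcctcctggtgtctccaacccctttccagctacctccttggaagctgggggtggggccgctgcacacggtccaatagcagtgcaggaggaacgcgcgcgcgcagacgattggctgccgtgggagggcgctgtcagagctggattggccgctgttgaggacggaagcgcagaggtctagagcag

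The libraries held 16948986 to 23912744 reads in genes for SCADD and 23991104 to 27148756 for WT. Unmapped reads were 29.7% ± 6.12 in SCADD and 14.5% ± 1.58 in WT libraries (SD, n = 3 each; exact two-sided permutation p = 0.1, the smallest that 3 against 3 allows). Acads, the gene of the missing enzyme, had 99.3, 104 and 96.96 CPM in SCADD livers and 185, 166 and 196 CPM in WT livers, so each library matched its label (log2 fold change -0.86, SE 0.13, adjusted p = 0.00407). CPM here is a count scaled to the depth of its library with trimmed mean of M-values (TMM) factors. Hepatocyte markers summed to 92880 to 134300 CPM in SCADD and 102500 to 152200 CPM in WT livers, with 1 of 8 called lower by edgeR (Cps1), 2 by DESeq2 and 3 at an unadjusted p under 0.05, a mark passed by 22.7% of all tested genes in edgeR. Summed markers of sinusoidal endothelium ran from 161 to 247 CPM in SCADD and 251 to 285 CPM in WT livers. By edgeR 1 of 8 was called lower and 3 had an unadjusted p under 0.05. Cholangiocyte markers summed to 33.6 to 43.8 CPM in SCADD and 48.4 to 54.8 CPM in WT livers. Of 4 tested, 0 were called by edgeR or limma-voom and 2 had an unadjusted p under 0.05, while DESeq2 called 1. Plasma cell markers, from another cell type rich in ER, summed to 204 to 249 CPM in SCADD and 187 to 217 CPM in WT livers. Of 6 tested, 3 were called higher in SCADD. For these marker counts, edgeR called 4.22% of all tested genes higher and 2.80% lower. Kupffer cell sums were 180 to 306 CPM in SCADD and 228 to 306 CPM in WT livers, and stellate cell sums 274 to 525.5 CPM in SCADD and 342 to 477 CPM in WT livers. Pancreatic acinar markers summed to 15.5 to 22.9 CPM in SCADD and 26.2 to 34.9 CPM in WT livers. Of these 8, Cela2a, Cpa1, Prss2 and Ctrb1 had 0 reads in all 6 libraries, and Cela1, the only 1 tested, was called lower. The part of these cell types and of the unmapped reads in the results was not tested.

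In SCADD livers 4 of 11 chaperones and 2 of 4 genes of the entry machinery fell, the sensor Atf6 rose, and no disulfide or degradation gene passed the test. By edgeR's quasi-likelihood test, with p-values adjusted over all 13498 genes tested and a threshold of 0.05, 6 of the 34 members fell (Hspa5, Hsp90b1, Sdf2l1, Manf, Sec61a1 and Ostc) and 1 rose (Atf6). Over all tested genes 2.80% were called lower and 4.22% higher, as 378 and 569 genes, a split that became 482 and 470 with upper-quartile scaling. The log2 fold change was negative for 30 of 34 members, and its median was -0.37, against -0.001 over all tested genes. Groups did not overlap for 14 members that were lower in SCADD and 1 that was higher, beside 13.1% and 14.9% of all tested genes. Before adjustment 16 of the 34 were below 0.05, beside 22.7% of all tested genes. The count of fallen members depended on single animals: it was 1, 5 and 6 with SCADD replicate 1, 2 or 3 left out in turn, and 10, 0 and 0 with WT replicate 1, 2 or 3 left out in turn. DESeq2 called 11 members lower, beside 519 of the 24676 genes with any read (2.10%). Those genes include some to which DESeq2 gave no adjusted p and which it could not call. That share is therefore not on the same footing as the 2.80% of edgeR.

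**Figure D1:**
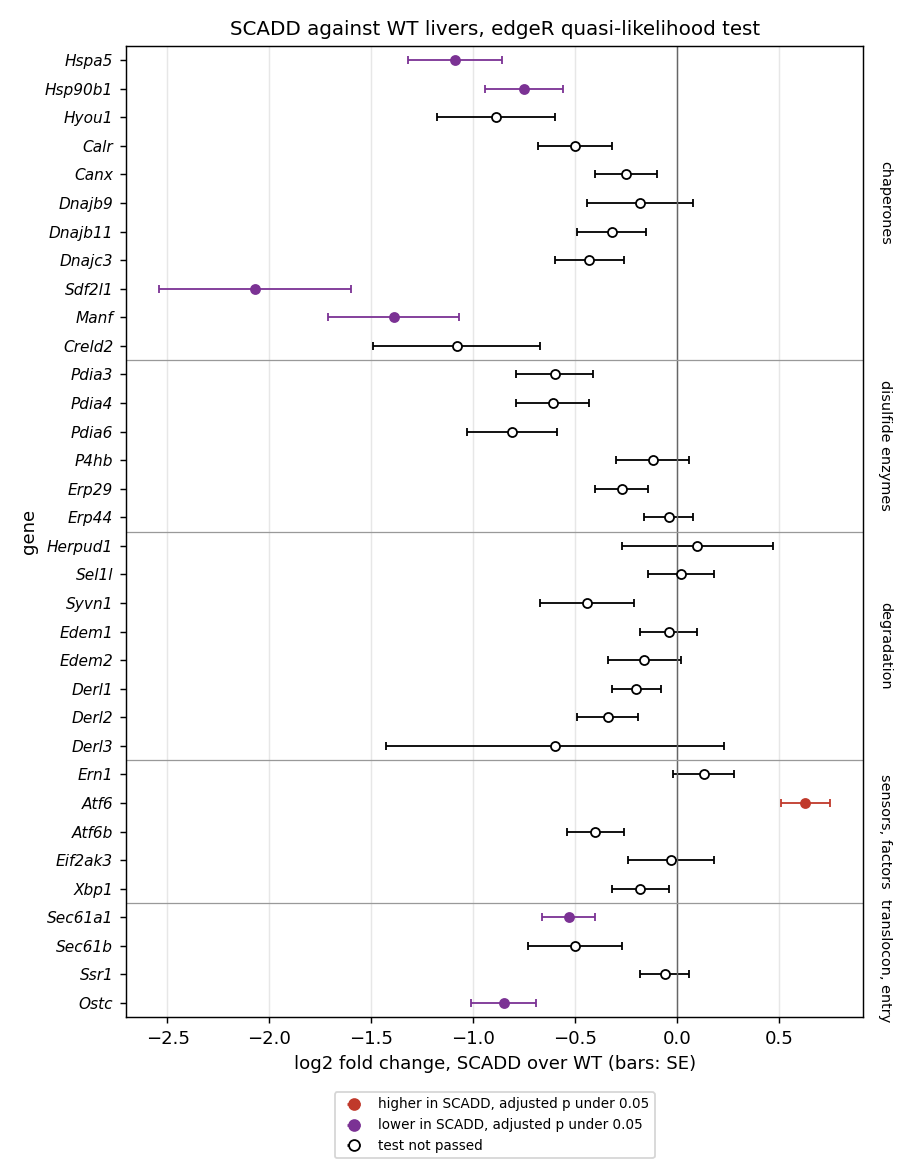
Log2 fold change of the 34 genes, SCADD over WT livers (horizontal axis, bars are SE), with genes in rows grouped by role. Filled points passed the test: Hspa5, Hsp90b1, Sdf2l1, Manf, Sec61a1 and Ostc lie left of 0 and Atf6 right of 0, and all 11 chaperones have negative values.

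Among the chaperones, 4 of 11 passed the test, all lower in SCADD, and the median log2 fold change of the 11 was -0.75. Hspa5 (ENSMUSG00000026864, chromosome 2, 34771970 to 34777547, GRCm38), the Hsp70 chaperone of the ER, had 512.5, 469 and 474 CPM in SCADD replicates 1, 2 and 3, against 665, 1309 and 1127 CPM in WT replicates 1, 2 and 3. The SCADD values lay close together and below every WT value, and WT replicate 1 was the WT liver nearest to them. The log2 fold change was -1.09 (SE 0.23, adjusted p = 0.0185). Its partner Hsp90b1, an Hsp90-type chaperone that takes over selected clients (chromosome 10, 86690209 to 86705509), had 586, 574 and 611 CPM in SCADD livers, against 750.4, 1049 and 1174 CPM in WT livers (log2 fold change -0.75, SE 0.19, adjusted p = 0.0390). Both calls ended without SCADD replicate 1, WT replicate 2 or WT replicate 3, and that of Hsp90b1 also without SCADD replicate 2, with adjusted p from 0.0534 to 0.101 for Hspa5 and from 0.0594 to 0.161 for Hsp90b1.

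The largest fold changes of the family were in small cofactors of Hspa5. Sdf2l1, which works in a complex with the co-chaperone Dnajb11 (chromosome 16, 17130138 to 17132383), had 3.35, 4.11 and 5.71 CPM in SCADD livers, against 7.89, 19.3 and 27.7 CPM in WT livers. Its groups did not overlap, yet the highest WT liver stood 3.51-fold above the lowest. The log2 fold change was -2.07 (SE 0.47, adjusted p = 0.0491), so the mean level in SCADD livers was 24.0% of that in WT livers. Manf, an ER-resident and secreted binding partner of Hspa5 (chromosome 9, 106838312 to 106891979), had 40.9, 44.6 and 41.9 CPM in SCADD livers, against 55.8, 146 and 133 CPM in WT livers. The fall was -1.39 on the log2 scale (SE 0.32, adjusted p = 0.0394), with the SCADD livers within 1.09-fold of each other. Both calls were kept only without WT replicate 1; leaving out any other library gave adjusted p from 0.0544 to 0.215 for Sdf2l1 and from 0.101 to 0.194 for Manf, and Sdf2l1 was also not called without a filter (0.105) or on RSEM counts (0.0534). In the annotation the Manf gene overlaps Rbm15b on the same strand, and reads that fall in both are not in these counts.

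Creld2, an ER protein of the disulfide isomerase type that is induced with Manf, did not pass in edgeR. Its levels were 20.9, 23.7 and 21.5 CPM in SCADD livers, against 19.6, 65.9 and 54.6 CPM in WT livers. WT replicate 1 lay below all SCADD livers, and the other 2 WT livers lay more than 2-fold above them. The log2 fold change was -1.08 (SE 0.41, adjusted p = 0.185), and -1.46 without WT replicate 1 (adjusted p = 0.00067). Hyou1, the nucleotide exchange factor of Hspa5, had 32.6, 40.5 and 25.2 CPM in SCADD livers, against 35.6, 71.96 and 75.2 CPM in WT livers. WT replicate 1 lay inside the SCADD range and the other 2 WT livers above it (log2 fold change -0.89, SE 0.29, adjusted p = 0.108). DESeq2 called both Creld2 (adjusted p = 0.0122) and Hyou1 (adjusted p = 0.0149). That made 6 of 11 chaperones lower by that tool, beside 2.10% of all genes given to it.

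The lectin chaperones were less different. Calr averaged 163 ± 26.9 CPM in SCADD and 230.4 ± 44.4 CPM in WT livers (SD, n = 3 each; log2 fold change -0.50, adjusted p = 0.127), and Canx, its membrane-bound counterpart, 161.5 ± 15.9 CPM in SCADD and 192.5 ± 19.2 CPM in WT livers (-0.25, adjusted p = 0.344). The groups overlapped for both. The J-domain co-chaperones, which stimulate the ATPase of Hspa5, did not pass either. Dnajc3 had 188, 186 and 187 CPM in SCADD livers, against 194, 282 and 283 CPM in WT livers, without overlap (-0.43, SE 0.17, adjusted p = 0.157). Dnajb11 (-0.32, adjusted p = 0.318) and Dnajb9 (-0.18, adjusted p = 0.739) overlapped between groups. For Dnajb9 the lowest liver of all was WT replicate 1, at 39.4 CPM, against 52.7 to 68.7 CPM in SCADD livers and 74.1 and 87.5 CPM in the other 2 WT livers.

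**Figure D2:**
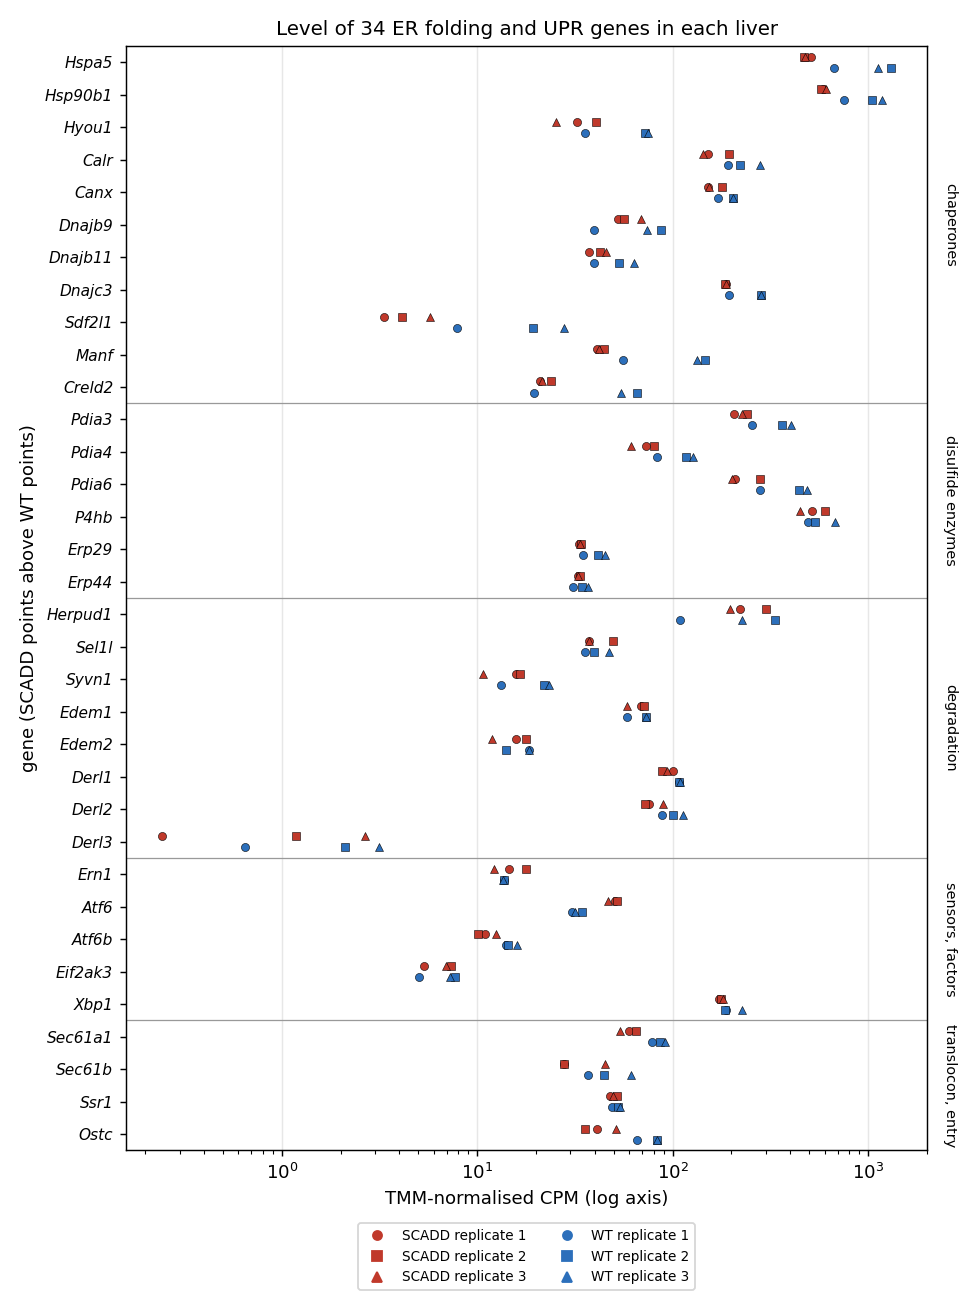
TMM-normalised CPM of each gene in each of the 6 livers (log axis), grouped by role, with SCADD points above WT points and marker shapes for replicates. SCADD points sit left of all WT points for Hspa5, Hsp90b1, Sdf2l1 and Manf and right of them for Atf6, and WT replicate 1 (circle) is the leftmost WT point for every chaperone.

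Of the 6 disulfide enzymes 0 passed by edgeR or limma-voom. DESeq2 called 3 lower (Pdia3, Pdia4 and Pdia6), beside 2.10% of all genes given to it. In edgeR 3 were below 0.05 before adjustment, beside 22.7% of all tested genes. All 6 log2 fold changes were negative, with a median of -0.44. Pdia6, a disulfide isomerase that associates with Hspa5, had 209, 279 and 200.2 CPM in SCADD livers, against 279, 442.5 and 486 CPM in WT livers. WT replicate 1 barely exceeded SCADD replicate 2, and the log2 fold change was -0.81 (SE 0.22, adjusted p = 0.0529). Pdia4 (-0.61, SE 0.18, adjusted p = 0.0655) and Pdia3, the isomerase that works with Calr and Canx (-0.60, SE 0.19, adjusted p = 0.0801), likewise did not overlap between groups. Without WT replicate 1 the adjusted p was 0.0163 for Pdia6, 0.0261 for Pdia4 and 0.0278 for Pdia3. P4hb, the founding disulfide isomerase, which is also a subunit of prolyl hydroxylase and of the microsomal triglyceride transfer protein, averaged 523.5 ± 76.7 CPM in SCADD and 569 ± 99.2 CPM in WT livers (log2 fold change -0.12, SE 0.18, adjusted p = 0.753). Erp44, which retains proteins in the early secretory pathway, had 33.1 ± 0.535 CPM in SCADD and 33.99 ± 3.08 CPM in WT livers, and Erp29, a folding factor of the same protein family, 33.7 ± 0.413 CPM in SCADD and 40.6 ± 5.23 CPM in WT livers (SD, n = 3 each), with adjusted p of 0.903 and 0.255.

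Genes of ER-associated degradation showed no called change. None of the 8 passed by edgeR, DESeq2 or limma-voom, and 1 had an unadjusted p under 0.05, Derl2, a channel-like derlin (log2 fold change -0.34, SE 0.15, adjusted p = 0.193); over all tested genes that share was 22.7%. The median log2 fold change was -0.18. Herpud1, a scaffold of the degradation complex that responds strongly to ER stress, had 222, 302 and 196 CPM in SCADD livers, against 109, 336 and 227 CPM in WT livers. The groups overlapped throughout, and the log2 fold change of 0.10 had an SE of 0.37 (adjusted p = 0.916). Sel1l and Syvn1 form the ubiquitin ligase complex of this route. Sel1l averaged 41.5 ± 6.94 CPM in SCADD and 40.9 ± 6.003 CPM in WT livers (adjusted p = 0.960), and Syvn1 14.4 ± 3.22 CPM in SCADD and 19.6 ± 5.48 CPM in WT livers (log2 fold change -0.44, SE 0.23, adjusted p = 0.296). The mannosidase-like genes Edem1 and Edem2 had log2 fold changes of -0.04 and -0.16, with SE of 0.14 and 0.18. Derl1 did not overlap between groups, with 88.5 to 100.1 CPM in SCADD and 108 to 108.5 CPM in WT livers (-0.20, SE 0.12, adjusted p = 0.374). Derl3, a derlin known from secretory cells, was scarce, with 6, 25 and 43 reads in SCADD and 18, 48 and 84 reads in WT livers, and its log2 fold change of -0.60 had an SE of 0.83.

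Among the sensors and factors, Atf6 alone passed, and it was the one member that rose. Atf6 encodes the membrane-tethered factor that is released by proteolysis under stress (ENSMUSG00000026663, chromosome 1, 170704674 to 170867771). It had 50.5, 52.1 and 46.7 CPM in SCADD livers, against 30.6, 34.2 and 31.8 CPM in WT livers. The 2 groups were well apart and each spanned about 1.12-fold. The log2 fold change was 0.63 (SE 0.12, adjusted p = 0.0117), a level 154% of that in WT livers. It ran from 0.58 to 0.67 with each library left out, and the call ended without SCADD replicate 1, WT replicate 1 or WT replicate 3 (adjusted p from 0.0561 to 0.0632). Of 39 other tested genes within 1 Mb on either side of Atf6, 2 were called higher (Hsd17b7 and Nr1i3) and 1 lower (Tstd1), all chosen here by position. Over all tested genes 4.22% were called higher and 2.80% lower. In the same window, 3 of 19 genes near Hspa5 were called lower and 1 higher. Near Sec61a1 1 of 20 was lower and 1 higher, and near Sdf2l1 1 of 32 was lower. Near Manf 3 of 41 and near Ostc 1 of 14 were higher, and near Hsp90b1 0 of 11 were called. The part of position in the member calls was not tested.

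Its paralogue Atf6b, which also encodes a membrane-tethered factor, lay in the other direction, with 10.9, 10.1 and 12.5 CPM in SCADD livers, against 14.1, 14.3 and 15.9 CPM in WT livers. Groups did not overlap, and the log2 fold change was -0.40 (SE 0.14, adjusted p = 0.113, and 0.047 without SCADD replicate 3). Xbp1, whose transcript is the splicing target of Ern1, had 172, 176 and 182 CPM in SCADD livers, against 188, 185 and 227 CPM in WT livers (-0.18, SE 0.14, adjusted p = 0.503). These gene-level counts do not separate spliced from unspliced Xbp1. Ern1 averaged 14.9 ± 2.79 CPM in SCADD and 13.6 ± 0.120 CPM in WT livers, and Eif2ak3 6.53 ± 1.05 CPM in SCADD and 6.67 ± 1.44 CPM in WT livers (SD, n = 3 each; adjusted p of 0.675 and 0.955).

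In the entry machinery 2 of 4 genes fell. Ostc, a subunit of the oligosaccharyltransferase that glycosylates proteins as they enter (chromosome 3, 130695912 to 130709444), had 41.2, 35.7 and 51.4 CPM in SCADD livers, against 65.99, 82.9 and 82.7 CPM in WT livers. Every SCADD liver was below every WT liver (log2 fold change -0.85, SE 0.16, adjusted p = 0.0115). Sec61a1, the pore of the translocation channel (chromosome 6, 88503579 to 88518905), had 59.6, 64.8 and 53.5 CPM in SCADD livers, against 78.7, 85.8 and 91.6 CPM in WT livers, again without overlap (-0.53, SE 0.13, adjusted p = 0.0382). The call of Ostc ended without WT replicate 2 or 3 (adjusted p of 0.0621 and 0.0528). That of Sec61a1 ended without SCADD replicate 1 or any WT replicate (0.0582 to 0.152) and with unstranded counts (0.0571). Sec61b, a small subunit of the same channel, averaged 33.6 ± 9.83 CPM in SCADD and 47.5 ± 12.6 CPM in WT livers (-0.50, SE 0.23, adjusted p = 0.230), and Ssr1, of the associated TRAP complex, 49.9 ± 2.29 CPM in SCADD and 51.8 ± 2.40 CPM in WT livers (adjusted p = 0.833).

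Levels between genes were compared in TPM, which accounts for transcript length and is a share of a fixed total per library. Hspa5 had 207 ± 42.9 TPM in SCADD and 463 ± 132.5 TPM in WT livers, and Hsp90b1 235 ± 34.4 TPM in SCADD and 410.5 ± 66.4 TPM in WT livers (SD, n = 3 each). After these, in the order of the SCADD means, came P4hb with 178 ± 53.9 TPM in SCADD and 198 ± 25.1 TPM in WT, Herpud1 with 155 ± 64.3 TPM in SCADD and 143 ± 71.6 TPM in WT livers, and Pdia6 with 109 ± 35.9 TPM in SCADD and 195 ± 42.6 TPM in WT livers. Manf had 57.7 ± 11.4 TPM in SCADD and 157 ± 62.1 TPM in WT livers. The means of Hspa5 and Hsp90b1 lay less than 1 SD apart in both groups, and in WT livers so did those of P4hb and Pdia6. In SCADD livers P4hb lay less than 1 SD from both Hspa5 and Herpud1. Pdia6 there lay within the SD of Herpud1, so this order is not resolved. Of the sensors and factors, Xbp1 had the highest level, 89.3 ± 15.9 TPM in SCADD and 103 ± 9.37 TPM in WT livers, while Atf6 had 6.66 ± 1.48 TPM in SCADD and 4.497 ± 0.229 TPM in WT livers and Eif2ak3 1.62 ± 0.337 TPM in SCADD and 1.82 ± 0.395 TPM in WT livers.

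Most members had the same lowest liver inside the WT group. WT replicate 1 was the lowest of the 3 WT livers for 31 of 34 members (91.2%), beside 34.7% of all tested genes, and for all 11 chaperones and all 6 disulfide enzymes. Among sensors and factors WT replicate 1 was the lowest for 3 of 5. WT replicate 3 was the highest WT liver for 24 members and WT replicate 2 for 9. Among the 11 chaperones WT replicate 3 was the highest for 6 and WT replicate 2 for 5. Summed over the 11 chaperones, levels were 1776, 1813 and 1778 CPM in SCADD replicates 1, 2 and 3, against 2170, 3507 and 3494 CPM in WT replicates 1, 2 and 3. The chaperone sum of WT replicate 1 thus lay nearer to the SCADD livers than to the other WT livers. With 3 livers a group, no correlation is given.

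The spread between livers differed by role. The ratio of the highest to the lowest liver had a median of 1.23 over the members in SCADD and 1.46 in WT, beside 1.38 in SCADD and 1.27 in WT over all tested genes. The range was wider in WT than in SCADD for 26 of 34 members (76.5%), including 11 of 11 chaperones and 6 of 6 disulfide enzymes, beside 38.7% of all tested genes. In the other roles the median ratio was larger in SCADD. It was 1.41 in SCADD and 1.33 in WT for degradation genes. For sensors and factors it was 1.23 in SCADD and 1.13 in WT, and for the entry machinery 1.33 in SCADD and 1.21 in WT. Gene by gene, the range was still wider in WT for 5 of 8 degradation genes and 3 of 5 sensors and factors. In the entry machinery this held for 1 of 4 genes. SCADD replicate 2 was the highest SCADD liver for 21 members (61.8%), beside 37.6% of all tested genes. WT replicate 1 exceeded all SCADD livers for 15 members, lay inside their range for 11 and below it for 8. WT replicate 2 exceeded them for 27 members and WT replicate 3 for 29. Over all tested genes these shares were 27.7%, 28.3% and 26.9% for WT replicates 1, 2 and 3.

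**Figure D3:**
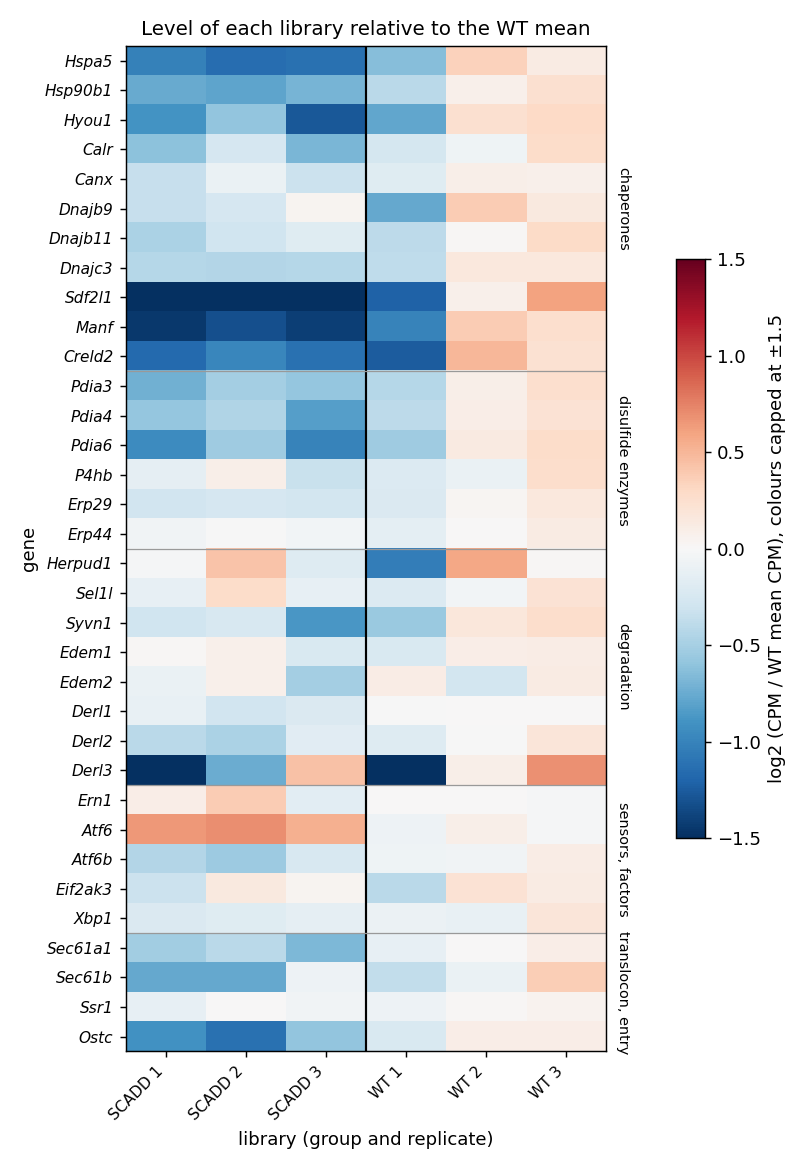
Level of each gene in each library as log2 of its CPM over the WT mean (colour, capped at ±1.5), with SCADD libraries left and WT libraries right and genes grouped by role. The chaperone and disulfide rows are mostly blue in the 3 SCADD libraries and in WT replicate 1 and mostly red or pale in WT replicates 2 and 3, while the Atf6 row is red in SCADD libraries.

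Leaving out a library moved these values. Without WT replicate 1 the median log2 fold change of the members was -0.48, and Hyou1, Creld2, Pdia3, Pdia4 and Pdia6 passed the test beside Hspa5, Hsp90b1, Sdf2l1, Manf and Ostc, while Sec61a1 and Atf6 did not. Without WT replicate 3 the median was -0.23 and 0 of 34 members were called. Over all tested genes the number called was 517, 915 and 1590 with SCADD replicate 1, 2 or 3 left out, and 697, 395 and 460 with WT replicate 1, 2 or 3 left out, against 947 with all 6 libraries. The sign of the log2 fold change of the 7 called members was the same in all 6 of these fits.

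**Figure D4:**
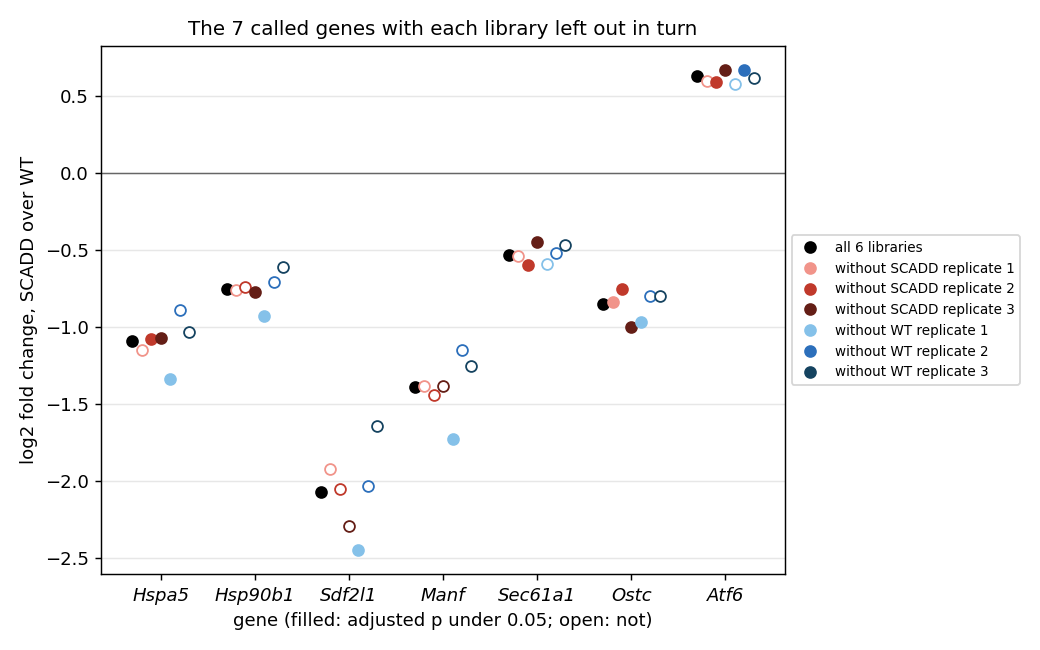
Log2 fold change, SCADD over WT (vertical axis), of the 7 called genes with all 6 libraries (black) and with each library left out in turn. Filled points passed the test and open points did not: Sdf2l1 and Manf passed with all libraries and without WT replicate 1, and no gene crosses 0.

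Genes with and without the ERSE were set side by side. All 9 members with the motif had negative log2 fold changes, with a median of -0.60, and 2 of them were called (Hspa5 and Hsp90b1). The 18 members with a window and no ERSE had a median of -0.17, with 15 negative and 1 called (Sdf2l1). The 7 members with no window had a median of -0.53, and they hold 3 of the 6 fallen members (Manf, Ostc and Sec61a1) as well as Atf6. Of 28 other genes with the motif 10 were tested. Their log2 fold changes ran from -3.76 to 1.17 with a median of -0.42, and 1 was called lower (Ero1lb) and 1 higher (Acacb). The difference between these sets was not tested.

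Other genes of the same organelle were read from 6 lists of 133 genes, of which 127 were tested. Of those 8 fell and 1 rose, 7.09% in all, beside 7.02% of all tested genes. The pooled shares join both directions: of all tested genes, 2.80% were called lower and 4.22% higher. In folding and disulfide formation 3 of 26 fell (11.5%). Erp27, a disulfide isomerase relative without catalytic activity, had 0.245, 0.330 and 0.682 CPM in SCADD livers, against 3.22, 2.75 and 3.57 CPM in WT livers (log2 fold change -2.99, SE 0.34, adjusted p = 0.000673). Ppib, the ER cyclophilin that isomerises prolines, had 197, 192 and 241 CPM in SCADD livers, against 357, 447 and 535.5 CPM in WT livers (-1.09, SE 0.18, adjusted p = 0.00664). Both kept their call with each library left out. Ero1lb, the oxidase that recharges disulfide isomerases, averaged 16.7 ± 3.18 CPM in SCADD and 27.1 ± 2.82 CPM in WT livers (-0.70, SE 0.16, adjusted p = 0.0264), with adjusted p from 0.0823 to 0.112 without SCADD replicate 1, WT replicate 2 or WT replicate 3.

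In translocation and glycosylation 3 of 28 fell (10.7%), beside 2.80% of all tested genes. They were the oligosaccharyltransferase subunits Magt1 (-0.69, SE 0.14, adjusted p = 0.0137) and Rpn1 (-0.79, SE 0.17, adjusted p = 0.0181) and the signal peptidase subunit Spcs3 (-0.50, SE 0.13, adjusted p = 0.0483). Rpn1 lies within 1 Mb of Sec61a1. None of these 3 was called without WT replicate 2 or 3, and neither Magt1 nor Spcs3 without SCADD replicate 1 (adjusted p of 0.0751 and 0.155). The call of Spcs3 also ended with limma-voom, non-robust edgeR, RSEM counts and unstranded counts (0.0505 to 0.0527). In transport from the ER to the Golgi, 1 of 25 rose and 1 fell, beside 4.22% and 2.80% of all tested genes. Surf4, a cargo receptor for secreted proteins and lipoproteins, had 199, 206 and 171 CPM in SCADD livers, against 100.3, 102 and 110.1 CPM in WT livers, and kept its call with each library left out (0.88, SE 0.14, adjusted p = 0.00418). Sec23b, of the COPII coat, averaged 14.6 ± 2.07 CPM in SCADD and 22.7 ± 3.83 CPM in WT livers (-0.63, SE 0.16, adjusted p = 0.0432), and was called without WT replicate 1 or SCADD replicate 2 but neither without any other library nor by limma-voom (0.0524).

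Further degradation genes again showed 0 calls among 23 by edgeR, 4 with an unadjusted p under 0.05 (beside 22.7% of all tested genes), 1 lower by DESeq2 and 0 by limma-voom. The smallest p-values belonged to Nploc4, a cofactor of the p97 segregase (0.40, SE 0.12, adjusted p = 0.0686), and Selenos, a selenoprotein that recruits it (-0.47, SE 0.14, adjusted p = 0.0701). In the PERK and integrated stress response list 1 of 13 fell by edgeR and 0 of 15 by DESeq2. Over all tested genes edgeR called 7.02% in either direction. Of the 13, 9 had positive log2 fold changes, and the median was 0.09. By edgeR 3 were higher and 1 lower at an unadjusted p under 0.05, beside 22.7% of all tested genes in either direction. The gene that fell was Chac1, a glutathione-degrading enzyme downstream of Atf4. It had 0.286, 0.425 and 0.310 CPM in SCADD livers, against 0.796, 0.831 and 0.976 CPM in WT livers (-1.34, SE 0.35, adjusted p = 0.0438). The call ended with any library left out. Of 12 other sensors and proteases 0 passed by edgeR, limma-voom or DESeq2, 3 had an unadjusted p under 0.05 by edgeR, again beside 22.7% of all tested genes, and the lowest adjusted p-values were 0.109 for Creb3 (-0.38, SE 0.13) and 0.123 for Rtcb, the ligase that joins spliced Xbp1 (-0.36, SE 0.13).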

How the data were processed

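Poly(A) RNA libraries of 6 livers were analysed. Per the submitters' processing notes, the tools were STAR 2.7.6a with RSEM 1.3.3 and the build was GRCm38. Their annotation release is not given in the sources used here. The authors deposited STAR read counts per gene, not normalised, and RSEM tables with expected counts, TPM (scaled by the authors' RSEM run by length to one fixed total per library) and FPKM (likewise the authors' values, not used here). Column 4 of the STAR tables, with 96.8% to 97.3% of stranded reads, was used, and the summary rows (unmapped reads 13.6% to 36.6% of all) stayed out. Multi-mapped reads (10.1% to 13.1%) and reads in overlapping genes are not in these counts. Of 55487 gene IDs 55141 matched GENCODE M21, which gave symbols and coordinates.

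Genes were kept by filterByExpr (minimum count 10, minimum total 15), normalised with TMM factors and compared in edgeR 4.0.16, run in R 4.3.3 (estimateDisp, robust glmQLFit, glmQLFTest; group as the only term), with Benjamini-Hochberg adjustment over 13498 genes and a threshold of 0.05. Each adjusted p in the text is from this test unless another tool is named. SE is the log2 fold change over the square root of F, an approximation. The test was checked on simulated counts. It called 10 of 65 genes changed 1.5-fold, 49 of 66 changed 2-fold and 62 of 64 changed 4-fold, with 7 false among 128 calls. A gene that was not called may therefore still differ by 1.5-fold. Replicates differed beyond sampling noise (chi-square per degree of freedom 36.5 to 135), and p-values measure the spread between these animals. The members, the lists and the motifs were chosen with earlier results of these data known. Named genes are the 34 members, Acads and, per list, up to 4 called genes with the smallest p, or 2 where none was called; genes near Atf6 and genes with the ERSE were taken by position and sequence. A symbol with 2 gene IDs was read from the longer gene. Alternatives were RLE and upper-quartile scaling, other filters, DESeq2 1.42.0, limma-voom 3.58.1, non-robust edgeR, rounded RSEM expected counts, unstranded counts, the replicate number as a block, and leaving out each library.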

Additional observations from a re-analysis of the deposited data

How the results depend on the processing

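Without a filter on low counts 950 genes were higher and 752 lower in SCADD, 11 members were lower, and 3 genes of the other lists were higher and 15 lower. DESeq2 called 11 members lower, against 5 with RSEM expected counts and 9 with the replicate block. Each of these 3 settings called 2 genes of the other lists higher. Leaving out 1 library gave 240 to 909 genes higher and 155 to 681 lower, 0 to 1 members higher and 0 to 10 lower, and 1 to 3 genes of the other lists higher and 2 to 10 lower; fewer libraries also lower the power of the test. Members with values near 0 changed sign: Sel1l was -0.03 with upper-quartile scaling, which moved the median of all genes to -0.049. With 1 library left out the log2 fold changes ran from -0.13 to 0.14 for Sel1l, -0.46 to 0.06 for Dnajb9, -0.24 to 0.03 for P4hb, -0.12 to 0.03 for Erp44, -0.24 to 0.51 for Herpud1, -0.15 to 0.05 for Edem1, -0.02 to 0.25 for Ern1 and -0.21 to 0.09 for Eif2ak3. Over the named genes, 448 of 479 values under the settings that keep all libraries had the direction and side of the threshold reported, as did 216 of 288 with a library left out. The cause of these shifts was not tested.

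The labels do not say that replicate numbers pair the animals. Deviations of same-numbered libraries from their group means correlated at 0.0606, 0.0372 and 0.107, the last being the highest of all pairs. Pairs of unlike number ran from -0.127 (SCADD replicate 1 with WT replicate 3) to 0.0612 (SCADD replicate 1 with WT replicate 2). Values this small cannot decide whether the animals were paired. With the replicate block 668 genes were higher and 480 lower, 9 members were lower and 1 higher, Pdia3, Pdia6 and Sec61b being added. At a depth of 16948986 to 27148756 reads per library the scarce members Derl3 and Sdf2l1 were the least precise.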
